A study of Epinephelus fuscoguttatus x Epinephelus lanceolatus with 9 samples.

Results

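The intestine of the pearl gentian grouper, which is bred by crossing Epinephelus fuscoguttatus with Epinephelus lanceolatus, was sequenced as RNA in 9 libraries, 3 from each of the groups FM, SBM and Drug. FM and SBM often stand for fish meal and soybean meal in fish feed research, but the labels leave them as letters, and they give no base diet, dose, age, gut segment or sampling time. The series title names the herb Lithospermum erythrorhizon, and the Drug group carries no other description. The comparison asked which genes stood at a shifted level in SBM and Drug alike, so the 6 libraries of both groups were set against the 3 FM libraries across 22344 genes. A gene is said here to have risen when its adjusted p was under 0.05 in edgeR's quasi-likelihood test of the mean of SBM and Drug against FM and all 6 libraries lay above all 3 FM libraries, and to have fallen when all 6 lay below. For such a gene the place of the 6 libraries above or below FM is thus set by the rule and is not a separate result. Of the 17731 genes with enough counts to be tested, 438 rose and 274 fell, 712 in all.

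Gut epithelium takes up fat, sterols, vitamins and minerals, and it also makes cholesterol. When the membranes of a vertebrate cell run short of cholesterol, the transcription factor SREBP-2, made from the gene srebf2, moves to the nucleus and raises the genes of cholesterol synthesis. Fatty acids are burned in mitochondria and peroxisomes, and cells sense oxygen through prolyl hydroxylases that mark the hypoxia-inducible factors for breakdown.

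Levels are given in CPM, counts scaled to a common library size with TMM factors, in order of replicate number, and folds and log2 fold changes are those of the model. Summed levels of cell type markers are the exception, being scaled by the total count alone, without TMM factors. They are thus not on the same scale as the levels of single genes. CPM does not correct for gene length, so levels are compared between libraries and not between genes. Total counts were 32.9 to 35.5 M per library. The absorptive enterocyte markers fabp2, slc15a1a, cdx1a and cdx1b were present in every library, with a summed level of 1219 to 1627 CPM in FM, 1299 to 3111 CPM in SBM and 5843 to 7217 CPM in Drug. The higher sum in Drug came mostly from fabp2, at 5111 to 6598 CPM there. Of the 4 markers, 2 had a positive and 2 a negative log2 fold change against FM, so the sum does not stand for all of them. The intestinal factor cdx1a fell (1.58-fold in SBM and 2.25-fold in Drug), a call lost without FM replicate 1 or 2, SBM replicate 3 or any 1 Drug library. FM replicate 3 stood apart through hepatocyte transcripts, whose 16 markers summed to 20171 CPM there and to 58.2 to 770 CPM in the other 8 libraries, and 252 genes at 5 CPM or more lay over 10-fold above all other libraries in it. Whether each library is its own fish is not labelled, and p-values thus reflect library-to-library spread that may be technical. In bulk tissue, fewer cells of a type and less RNA per cell cannot be told apart.

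Taking position alone, all 6 SBM and Drug libraries lay above all 3 FM libraries in 1119 genes, 6.31% of those tested, and below them in 1073, which is 6.05%. Adding the test left 438 genes that rose, or 2.47%, and 274 that fell, or 1.55%. The genes that rose did so by a median of 2.16-fold and by up to 161.5-fold, and 86 of them by more than 4-fold. The genes that fell did so by a median of 1.98-fold, with 29 beyond 4-fold and the farthest at 122.7-fold. Among all genes tested the median log2 fold change was -0.02, and 47.5% were positive. At the edge of the rule stood zdhhc12b, with an adjusted p of 0.04997, and hand2, just outside at 0.0501. The first held 9, 11.7 and 8.4 CPM in the FM libraries, 2.99, 6.43 and 4.94 CPM in SBM and 3.89, 5.55 and 4.84 CPM in Drug, and the second 3.99, 4.96 and 3.24 CPM in the FM libraries, 10.6, 9.7 and 7.12 CPM in SBM and 5.86, 8.06 and 5.73 CPM in Drug.

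The median rise among the 438 genes was 2.03-fold in SBM and 2.29-fold in Drug, and the median fall among the 274 was 1.92-fold in SBM and 2.06-fold in Drug, with the same FM libraries on the other side in each case. Drug lay farther from FM than SBM in 306 of the genes that rose and in 164 of those that fell. In 338 of the genes that rose and 214 of those that fell the 2 groups lay within 1.5-fold of each other, and in 27 and 13 they were more than 2-fold apart. Across all genes tested, 79.8% lay within 1.5-fold between Drug and SBM, and 7 genes (0.0395%) differed between them at an adjusted p under 0.05. The library closest to FM was most often SBM replicate 2, in 183 of the genes that rose and 88 of those that fell, followed among those that rose by SBM replicate 1 with 136.

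The counts depended on single libraries. Leaving out FM replicate 1, 2 or 3 gave 52, 2 or 201 genes that rose and 24, 2 or 138 that fell, and leaving out SBM replicate 3 or Drug replicate 1, 2 or 3 gave 53, 123, 188 or 67 that rose and 27, 57, 93 or 36 that fell. Without SBM replicate 1 the counts were 869 and 437, and without SBM replicate 2 they were 723 and 400. Without FM replicate 3 and SBM replicate 2 together they were 617 and 360, and with DESeq2 926 and 671. Genes tested numbered 18075, 18026, 17886 and 18947 in turn. Counts of list members under another setting are to be read beside its count over all genes. On the deposited FPKM values, which are scaled by the total count alone, 226 genes rose and 322 fell with a pseudocount of 1, so that 41.2% of the calls were rises against 61.5% on the TMM-scaled counts. Those FPKM values were tested with limma, so the tool and the scaling changed together, while edgeR with RLE or upper-quartile factors gave 61.9% or 62% rises. By position alone, which needs neither tool nor pseudocount, 625 genes had all 6 libraries above FM and 1587 below on FPKM.

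Sterol synthesis had the largest share of genes that rose among the lists with at least 15 tested genes. Of its 23 tested genes, 12 rose (52.2%, against 2.47% of all genes), and the median log2 fold change of the 23 was 2.63, with 2.23 in SBM and 2.77 in Drug. In 15 of the 23 all 6 libraries lay above FM (65.2%, against 6.31% of all genes). None fell with edgeR or DESeq2, and none had a negative change at an unadjusted p under 0.05. The largest rise of all was that of sqlea, squalene epoxidase, the enzyme that commits squalene to sterols. It held 2.44, 0.527 and 1.94 CPM in the FM libraries, 249, 80.4 and 305 CPM in SBM and 567, 145 and 281 CPM in Drug. Every SBM and Drug library lay more than 10-fold above the highest FM library, and SBM replicate 2 was the lowest of the 6 (log2 fold change 7.34, SE 0.90, adjusted p = 0.0127). The rise was 129-fold in SBM and 202-fold in Drug, and the 95% interval of the log2 difference between Drug and SBM, -0.94 to 2.23, included 0.

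The methylsterol monooxygenase msmo1, which removes methyl groups from the sterol ring, had 19.8, 6.57 and 20.3 CPM in the FM libraries, 617, 271 and 735 CPM in SBM and 857, 300.5 and 476 CPM in Drug. Both groups lay at nearly the same distance from FM, 34.7-fold in SBM and 35-fold in Drug (log2 fold change 5.12, SE 0.62, adjusted p = 0.0122). Its partner erg28, a scaffold that holds the demethylation enzymes together, had 12, 6.57 and 10.6 CPM in the FM libraries, 77.9, 49 and 96.5 CPM in SBM and 174, 62.2 and 102 CPM in Drug (log2 fold change 3.24, SE 0.41, adjusted p = 0.0122). Lanosterol synthase, lss, which closes the sterol rings, stood at 15.5, 8.65 and 9.87 CPM in the FM libraries, 173, 45.6 and 154 CPM in SBM and 291, 88.3 and 171 CPM in Drug. SBM replicate 2 was again the lowest of the 6, and the rise was 11-fold in SBM and 16.1-fold in Drug. The sterol reductase tm7sf2 had 7.96, 2.64 and 8.1 CPM in the FM libraries, 65.6, 26.8 and 93.3 CPM in SBM and 143, 44.5 and 87.1 CPM in Drug, a 12.1-fold rise.

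**Figure D1:**
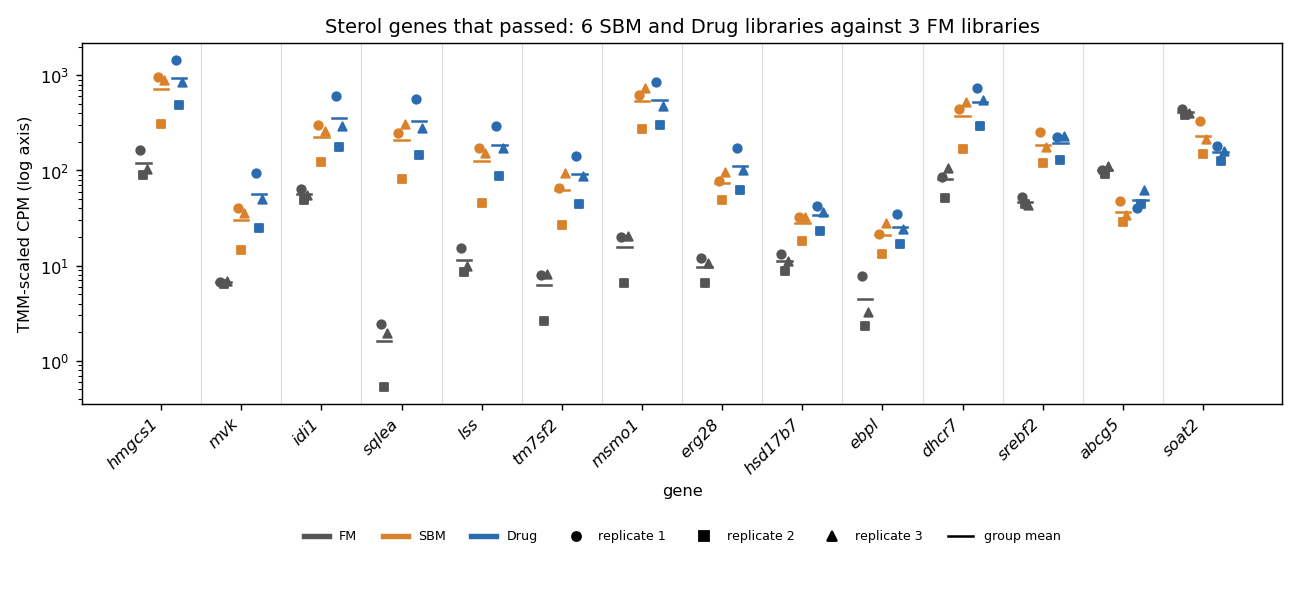
TMM-scaled CPM on a log axis for 14 sterol genes that passed, with FM in grey, SBM in orange and Drug in blue, the marker shape giving the replicate number and the bar the group mean. As the rule requires, all 6 SBM and Drug libraries lie above the 3 FM libraries in 12 genes from hmgcs1 to srebf2, and below them in abcg5 and soat2.

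Enzymes of early and of late steps were both among the genes that rose. Among enzymes that build isoprene units, the synthase hmgcs1 had 164, 89.4 and 103 CPM in the FM libraries, 971, 309 and 889 CPM in SBM and 1457, 490.3 and 849.9 CPM in Drug. The mevalonate kinase mvk had 6.76, 6.38 and 6.84 CPM in the FM libraries, 39.9, 14.6 and 36 CPM in SBM and 93.8, 25.1 and 50.1 CPM in Drug, and its FM libraries lay close together while the other 6 spread from 14.6 to 93.8 CPM. The isomerase idi1 rose 5.08-fold, 4.04-fold in SBM and 6.4-fold in Drug. At the end of the pathway, the reductase dhcr7 rose 5.48-fold, the ketoreductase hsd17b7 rose 2.77-fold, and ebpl, a relative of the sterol isomerase ebp, rose 5.14-fold. A further 3 genes, hmgcra, fdps and mvda, had all 6 libraries above FM without passing the test. For hmgcra, the rate-limiting reductase of the pathway, the values were 41, 15.7 and 140.0 CPM in the FM libraries, 1070.0, 245 and 741 CPM in SBM and 937, 351 and 561 CPM in Drug, and FM replicate 3 was the high one of its group (log2 fold change 3.31, adjusted p = 0.069). For fdps, farnesyl diphosphate synthase, SBM replicate 2 held 32.2 CPM against 425 and 185 CPM in the other SBM libraries (log2 fold change 4.16, adjusted p = 0.0562). In 11 of the 23 genes the test was not passed, and ggps1, which feeds protein prenylation, had the only negative value, -0.12.

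The number of sterol genes that rose was 4, 0 and 6 when FM replicates 1, 2 and 3 were left out in turn. It was 3 when SBM replicate 3 or Drug replicate 3 was left out, 7 when Drug replicate 1 was, and 17 when FM replicate 3 and SBM replicate 2 both were. Leaving out any 1 library moved the log2 fold change of sqlea between 6.91 and 7.74 and that of msmo1 between 4.76 and 5.36. The rise of sqlea passed in 19 of 20 alternatives, the exception being without FM replicate 2, with an adjusted p of 0.0689 (3.6e-36 to 0.0689 over the 20).

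The regulators and carriers of sterols split. The gene srebf2, which encodes SREBP-2, had 52.3, 44.8 and 43.2 CPM in the FM libraries, 253, 119 and 177 CPM in SBM and 225, 129.9 and 232 CPM in Drug. SBM replicate 2 was the lowest of the 6 (log2 fold change 2.02, SE 0.29, adjusted p = 0.0155). The rise was 3.92-fold in SBM and 4.18-fold in Drug. In the same list of 18 genes, 2 fell. The sterol exporter subunit abcg5, which pumps sterols back into the gut lumen in mammals, had 100.3, 91.9 and 112 CPM in the FM libraries, 47.4, 28.9 and 34.1 CPM in SBM and 40.6, 44.8 and 62.4 CPM in Drug (log2 fold change -1.25, SE 0.19, adjusted p = 0.0177). The cholesterol esterifying enzyme soat2 had 442, 382 and 398 CPM in the FM libraries, 330.0, 150.0 and 213 CPM in SBM and 181, 125 and 159 CPM in Drug, and SBM replicate 1 lay closest to FM (log2 fold change -1.11, SE 0.23, adjusted p = 0.0346). The partner of abcg5, abcg8, stood at 157, 116 and 160.4 CPM in the FM libraries, 108, 25 and 54.7 CPM in SBM and 78.4, 88.5 and 122 CPM in Drug and did not pass (log2 fold change -0.89, adjusted p = 0.179). The sterol uptake protein npc1l1 did not pass either, with 125, 54.9 and 54.4 CPM in the FM libraries, 1126, 120.4 and 488 CPM in SBM and 659, 556 and 665 CPM in Drug, and SBM replicate 2 lay just below FM replicate 1 (log2 fold change 2.95, adjusted p = 0.0533). The fatty acid regulator srebf1, a close relative of srebf2, had 271, 203 and 221 CPM in the FM libraries, 361, 101 and 158 CPM in SBM and 156, 174 and 149 CPM in Drug (log2 fold change -0.35, adjusted p = 0.565). Of this list 1 gene rose (5.56%, against 2.47% of all genes), 2 fell (11.1%, against 1.55%) and 15 did not pass. Without FM replicate 1 or 2 none of the 3 calls was kept, without SBM replicate 3 the fall count was 0, without FM replicate 3 or any of the Drug libraries it was 1, and without SBM replicate 1 or 2 the counts were 2 rises and 4 falls or 4 and 3. Outside the lists, and chosen after its values were seen, tmem97, a partner of the lysosomal cholesterol transporter npc1, rose 3.16-fold.

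In fat uptake and transport, 2 of 17 genes rose (11.8%, against 2.47% of all genes) and 15 did not pass, while 16 of 17 had a positive value (median log2 fold change 1.49). Apolipoprotein E, apoea, a carrier of lipid in lipoprotein particles, had 1748, 1497 and 1399 CPM in the FM libraries, 4069, 2638 and 4446 CPM in SBM and 6074, 4255 and 5638 CPM in Drug. SBM replicate 2 was the lowest of the 6 (log2 fold change 1.52, SE 0.20, adjusted p = 0.0122). The second gene was creb3l3l, a relative of a lipid-metabolism transcription factor of liver and gut, which rose 1.91-fold in SBM and 1.71-fold in Drug. The enterocyte fatty acid binding protein fabp2 had an adjusted p of 0.0298, but SBM replicate 2 at 782 CPM lay below FM replicate 3 at 836 CPM, and it is not counted as shifted alike. Its values were 719, 402 and 836 CPM in the FM libraries, 2994, 782 and 2486 CPM in SBM and 6248, 5111 and 6598 CPM in Drug. As fabp2 makes up most of the enterocyte marker sum in Drug, that sum is not separate from it, and the part of the enterocyte share in these lipid genes was not tested. The list had 0 rises without FM replicate 2, 1 without FM replicate 1, SBM replicate 3 or any of the Drug libraries, 8 without SBM replicate 2 and 11 without FM replicate 3 and SBM replicate 2. In fatty acid and glycerolipid synthesis 2 of 25 genes rose (8%, against 2.47% of all genes). The desaturase fads2 rose 3.16-fold and the acyl-CoA synthetase acsl5 1.99-fold. Their number was 0 without any 1 FM library, SBM replicate 3 or Drug replicate 1 or 3, 1 without Drug replicate 2 and 4 without SBM replicate 2. None of that list fell with edgeR or DESeq2 or had a negative change at an unadjusted p under 0.05.

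Fatty acid oxidation had the next largest number of genes that rose. Of 33 genes, 8 rose (24.2%, against 2.47% of all genes), 25 did not pass, and the median log2 fold change was 0.64, with 0.54 in SBM and 0.64 in Drug. None fell with edgeR or DESeq2 or at an unadjusted p under 0.05. In 16 of the 33 all 6 libraries lay above FM (48.5%, against 6.31% of all genes). The very long chain acyl-CoA dehydrogenase acadvl, which opens the mitochondrial cycle, had 79.6, 67.3 and 103 CPM in the FM libraries, 226, 204 and 217 CPM in SBM and 201, 166 and 175 CPM in Drug. The highest FM library was replicate 3, and the lowest of the other 6 was Drug replicate 2 (log2 fold change 1.24, SE 0.17, adjusted p = 0.0127). The carnitine palmitoyltransferases, which load fatty acids for entry into mitochondria, rose as a pair. The muscle-type cpt1b had 0.219, 0.448 and 0.177 CPM in the FM libraries, 1.84, 1.32 and 1.58 CPM in SBM and 1.62, 2.03 and 2.88 CPM in Drug, a 6.48-fold rise from a low level. The liver-type cpt1ab had 57.5, 49.9 and 62.7 CPM in the FM libraries, 134, 115 and 143 CPM in SBM and 93.6, 103 and 139 CPM in Drug (log2 fold change 1.09, SE 0.17, adjusted p = 0.0181). Its spread within FM was 49.9 to 62.7 CPM, and the lowest of the other 6 was Drug replicate 1.

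The trifunctional protein subunit hadhb, which completes the cycle, had 139.9, 116 and 167 CPM in the FM libraries, 249, 346 and 321 CPM in SBM and 420.1, 295 and 315 CPM in Drug, and rose 2.16-fold in SBM and 2.44-fold in Drug. The medium chain dehydrogenase acadm rose by less, 1.5-fold, and the isomerase eci2 by 2.03-fold. In peroxisomes the oxidase acox3 had 116, 73.3 and 123 CPM in the FM libraries, 317, 153 and 257 CPM in SBM and 289.8, 286 and 334 CPM in Drug. Here SBM replicate 2 was the lowest of the 6 (log2 fold change 1.38, SE 0.26, adjusted p = 0.0298). The carnitine octanoyltransferase crot, which ships shortened chains from peroxisomes to mitochondria, rose 2-fold in SBM and 1.83-fold in Drug. On the peroxisome list, abcd3a, a membrane importer of fatty acids, rose 2.15-fold, and slc6a8, the creatine transporter, had 123, 116 and 110.5 CPM in the FM libraries, 281, 389 and 502 CPM in SBM and 314, 428 and 480.4 CPM in Drug (log2 fold change 1.78, SE 0.22, adjusted p = 0.0122). Chosen after their values were seen, the peroxisomal enzymes phyh, decr2 and agps rose 2.17-fold, 3.01-fold and 1.73-fold. The count of 8 oxidation genes was 0 without FM replicate 1 or 2, 1 without SBM replicate 3, 5 without Drug replicate 1 or 2, 3 without Drug replicate 3 and 12 without SBM replicate 1, and 15 with DESeq2.

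All 41 tested genes of oxidative phosphorylation were positive, their median log2 fold change being 0.51 (0.48 in SBM and 0.52 in Drug), and 31 of the 41 had all 6 libraries above FM (75.6%, against 6.31% of all genes). By the test 7 rose (17.1%, against 2.47% of all genes) and 34 did not pass, and none fell with edgeR or DESeq2 or at an unadjusted p under 0.05. The ATP synthase subunit atp5f1b had 759, 689 and 728 CPM in the FM libraries, 1011, 1245 and 1287 CPM in SBM and 1269, 1082 and 1119.9 CPM in Drug (log2 fold change 0.69, SE 0.12, adjusted p = 0.0255). The FM libraries lay close together, and the nearest other library was SBM replicate 1. The succinate dehydrogenase subunit sdhc had 45.2, 38 and 41.4 CPM in the FM libraries, 64.6, 62.3 and 63.7 CPM in SBM and 67.7, 56.8 and 61.5 CPM in Drug, and the complex I subunits ndufs3 and ndufb5 rose 1.55-fold and 1.68-fold.

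**Figure D2:**
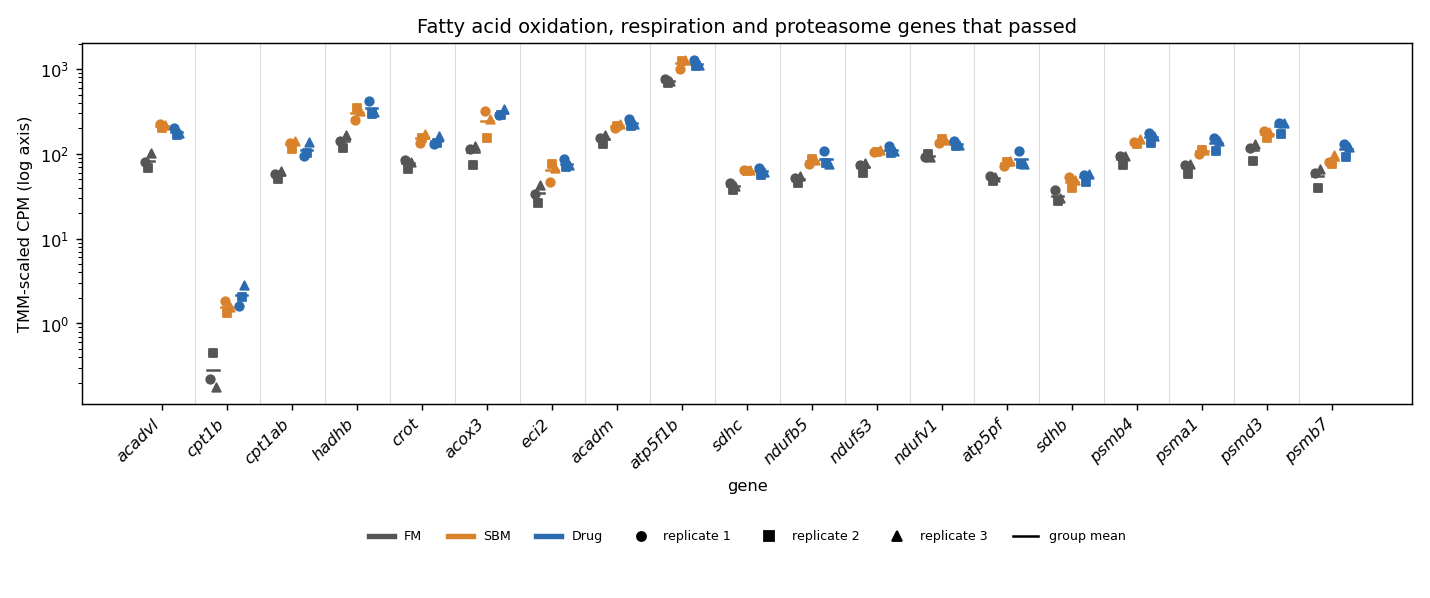
TMM-scaled CPM on a log axis of the genes of fatty acid oxidation (acadvl to acadm), oxidative phosphorylation (atp5f1b to sdhb) and the proteasome (psmb4 to psmb7) that passed, by library, with FM in grey, SBM in orange and Drug in blue and the bar at the group mean. As the rule for a rise requires, SBM and Drug points lie above FM in each gene, and the gap is widest in cpt1b (6.48-fold).

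The number of genes on the oxidative phosphorylation list that rose depended on single libraries and on the tool. It was 28 with DESeq2 and 16 without SBM replicate 1, when 926 of 18947 and 869 of 18075 genes rose in all. It was 0 without FM replicate 1 or 2, SBM replicate 3, or Drug replicate 1 or 3, and 0 on FPKM values. Without FM replicate 3 or Drug replicate 2 it was 1, and without FM replicate 3 and SBM replicate 2 together it was 3. Mitochondrially encoded transcripts held 3.65%, 3.99% and 4.66% of counts in the FM libraries. They held 2.62%, 4.01% and 3.25% in SBM and 4.22%, 3.65% and 3.86% in Drug. Their share was lowest in SBM replicate 1 and highest in FM replicate 3, and it did not lie above FM in both groups. The mitochondrial ribosome had no gene past the test among 58 with edgeR or DESeq2, 3 positive and 1 negative at an unadjusted p under 0.05, and a median log2 fold change of 0.17. The calcium uniporter mcu, chosen after its values were seen, rose 1.69-fold. The complex I subunit ndufb4, off the list and chosen likewise, rose too, a call kept in 10 of 20 alternatives.

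Some genes of protein breakdown rose too. Of 34 proteasome genes 4 rose (11.8%, against 2.47% of all genes), 30 did not pass, 13 had all 6 libraries above FM (38.2%, against 6.31%) and 31 had a positive value (median log2 fold change 0.51, with 0.32 in SBM and 0.67 in Drug). The core particle subunit psmb4 had 95.3, 73.2 and 93.8 CPM in the FM libraries, 139, 129 and 149 CPM in SBM and 177, 133 and 161 CPM in Drug (log2 fold change 0.76, SE 0.15, adjusted p = 0.0343). The others were psma1, psmb7 and psmd3, the last a part of the regulatory cap, at 1.73-fold, 1.79-fold and 1.74-fold. Without any 1 FM library, SBM replicate 3, Drug replicate 1 or Drug replicate 3 this count was 0, without Drug replicate 2 it was 2, and with DESeq2 it was 11. The autophagy list had 4 of 31 genes raised (12.9%, against 2.47% of all genes). The autophagosome protein map1lc3b had 39.6, 36.4 and 49.4 CPM in the FM libraries, 94.3, 126 and 131 CPM in SBM and 63.1, 78 and 68.6 CPM in Drug, with SBM above Drug in every library (log2 fold change 1.12, SE 0.17, adjusted p = 0.0177). The kinase ulk1b, which starts autophagy, rose 2.68-fold in SBM and 2.22-fold in Drug, the membrane protein wipi1 2.02-fold in SBM and 3.26-fold in Drug and the cargo receptor nbr1b 1.98-fold in SBM and 2.27-fold in Drug. The lysosomal protease ctsd had 191, 174 and 198 CPM in the FM libraries, 306, 444 and 453 CPM in SBM and 350.2, 325 and 368 CPM in Drug (log2 fold change 0.99, SE 0.16, adjusted p = 0.0181), while the other 40 genes of the lysosome list did not pass. The rise of ctsd, 2.44% of its list against 2.47% of all genes, was lost without FM replicate 1 or 2, SBM replicate 3 or Drug replicate 3. In the list 5 genes fell without SBM replicate 2, alone or with FM replicate 3, and 1 fell without FM replicate 3. The summed level of 7 lysosome-rich enterocyte markers was 9347 to 13174 CPM in FM, 4439 to 14373 CPM in SBM and 4975 to 6200 CPM in Drug, and its part in these values was not tested. The autophagy count was 0 without FM replicate 1 or 2 or SBM replicate 3 and 1 without Drug replicate 3. It was 2 without FM replicate 3 or Drug replicate 2, and 7 without SBM replicate 1. Off the lists, and chosen after their values were seen, the autophagy gene atg4da and the lysosomal genes ctns and gnsa fell. Their calls were kept in 14, 14 and 10 of 20 alternatives. Such genes off the lists were not counted in either direction.

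Few genes on the lists of DNA replication and mitosis passed, although nearly all had positive values. Of 38 DNA replication genes 3 rose (7.89%, against 2.47% of all genes), and 37 had a positive value (median log2 fold change 1.22). Of 37 mitosis genes 3 rose (8.11%) and all were positive (median 2.70). The replicative helicase subunit mcm5 had 13, 8.46 and 12.3 CPM in the FM libraries, 13.2, 22.5 and 27.3 CPM in SBM and 46.9, 43 and 39.2 CPM in Drug. SBM replicate 1 touched the FM range from above, and the Drug libraries lay highest (log2 fold change 1.42, SE 0.25, adjusted p = 0.0249). The helicase subunit mcm4 and the primase subunit prim1 rose 1.78-fold in SBM and 3.28-fold in Drug, and 2.15-fold in SBM and 3.92-fold in Drug. The proliferation marker mki67 had 22.7, 21.4 and 14.9 CPM in the FM libraries, 45.6, 40.0 and 34 CPM in SBM and 80.6, 47.5 and 48.5 CPM in Drug (log2 fold change 1.30, SE 0.23, adjusted p = 0.0255). The centralspindlin motor kif23, needed to divide the cell body, had 0.629, 0.501 and 0.56 CPM in the FM libraries, 0.73, 5.54 and 3.04 CPM in SBM and 10.1, 5.15 and 2.55 CPM in Drug, and its partner racgap1 had 0.492, 0.316 and 0.737 CPM in the FM libraries, 1.18, 5.8 and 3.1 CPM in SBM and 10.9, 4.29 and 1.85 CPM in Drug. In both genes SBM replicate 1 was the nearest to FM, and the rises were 5.5-fold in SBM and 10.5-fold in Drug for kif23 and 6.53-fold in SBM and 11-fold in Drug for racgap1. Of 20 alternatives, kif23 kept its call in 6 and racgap1 in 4. Off the lists, and chosen after their values were seen, ercc6l, ticrr and foxm1 rose too, with calls kept in 19, 15 and 9. Genes of dividing cells off the lists were not counted. Without SBM replicate 1 the replication and mitosis counts were 24 of 38 and 26 of 37, when 869 of 18075 genes rose in all. The list counts were 0 and 0 without FM replicate 1 or 2, SBM replicate 3 or Drug replicate 3. They were 0 and 1 without Drug replicate 1, 3 and 1 without Drug replicate 2, and 2 and 0 without FM replicate 3. Without SBM replicate 2 they were 3 and 5. With DESeq2 they were 8 and 13, when 926 of 18947 genes rose in all.

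A few transporters of the epithelium rose. In the list of ion and bicarbonate transport 4 of 20 genes rose (20%, against 2.47% of all genes) while the median log2 fold change was -0.18. The sodium bicarbonate cotransporter slc4a4a had 41.3, 38.1 and 48 CPM in the FM libraries, 191, 65.9 and 195 CPM in SBM and 121, 224 and 284 CPM in Drug, with SBM replicate 2 lowest of the 6 (log2 fold change 2.07, SE 0.40, adjusted p = 0.0317). The anion exchanger slc26a6, which secretes bicarbonate into the gut of marine fish, had 11.8, 9.28 and 8.6 CPM in the FM libraries, 28.7, 32.8 and 29.7 CPM in SBM and 20.7, 37.3 and 54.7 CPM in Drug (log2 fold change 1.77, SE 0.29, adjusted p = 0.0188). The sodium pump subunit atp1b1b had 917, 752 and 756 CPM in the FM libraries, 1542, 1256 and 1522 CPM in SBM and 1398, 1077 and 1253 CPM in Drug, a 1.65-fold rise, and s100a10a, a partner of annexin A2, rose 3.05-fold. The count of 4 was 0 without any 1 FM library or SBM replicate 3, 2 without Drug replicate 1 or 2, and 1 without Drug replicate 3. Among transporters of sugars, vitamins and metals, the thiamine transporter slc19a3a had 15.8, 14.4 and 15.2 CPM in the FM libraries, 35.1, 24 and 47.1 CPM in SBM and 43.9, 47.5 and 57.4 CPM in Drug (log2 fold change 1.47, SE 0.21, adjusted p = 0.0156). In the same list the iron exporter slc40a1, ferroportin, fell, with 486, 331 and 334 CPM in the FM libraries, 150.1, 230.0 and 222 CPM in SBM and 139, 132 and 189 CPM in Drug (log2 fold change -1.13, SE 0.20, adjusted p = 0.0255). The other 21 genes of this list did not pass. Of 20 alternatives, slc19a3a kept its call in 18 and slc40a1 in 14. That of slc40a1 was lost without FM replicate 1 or 2, SBM replicate 3 or any 1 Drug library. The rise and the fall were each 4.35% of the list, against 2.47% and 1.55% of all genes.

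Further carriers that lie on no list, chosen after their values were seen, also rose. The iron-binding membrane protein meltf had 379, 616 and 584 CPM in the FM libraries, 2791, 1726 and 1516 CPM in SBM and 1760.2, 1923 and 2094 CPM in Drug (log2 fold change 1.90, SE 0.24, adjusted p = 0.0122). The lowest of the 6 was SBM replicate 3, and the interval of the difference between Drug and SBM was -0.63 to 0.51. The copper importer slc31a1 rose 2.17-fold in SBM and 2.63-fold in Drug, the vitamin B12 carrier tcn2 2.72-fold in SBM and 2.35-fold in Drug, the folate receptor folr 2.12-fold in SBM and 1.89-fold in Drug and the drug and toxin exporter slc47a1 2.93-fold in SBM and 3.47-fold in Drug. Of genes that handle vitamin A, the carotene oxygenase relative bco1l had 150.0, 131 and 127 CPM in the FM libraries, 685, 261 and 675 CPM in SBM and 571, 606 and 785 CPM in Drug, and the retinol receptor stra6 rose 2.53-fold in SBM and 2.57-fold in Drug. The glycine cleavage protein gcshb had 16.5, 8.6 and 24.2 CPM in the FM libraries, 77.3, 42.1 and 90.0 CPM in SBM and 128, 116 and 147 CPM in Drug, a 5.81-fold rise.

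Defence against oxidants and foreign compounds showed rises of single enzymes. Of 36 antioxidant and glutathione genes 4 rose (11.1%, against 2.47% of all genes) and 32 did not pass. The microsomal glutathione transferase mgst3a had 121, 90.3 and 102 CPM in the FM libraries, 208, 185 and 246 CPM in SBM and 357, 323 and 309 CPM in Drug (log2 fold change 1.34, SE 0.16, adjusted p = 0.0122). Its relative mgst3b had 55.1, 30.4 and 77.5 CPM in the FM libraries, 135, 103 and 192 CPM in SBM and 330.0, 295 and 336 CPM in Drug, and in both genes the Drug libraries lay above the SBM libraries, with intervals of the log2 difference of 0.24 to 1.02 and 0.41 to 1.91. These intervals are not adjusted for the number of genes. None of the genes that rose differed between Drug and SBM at an adjusted p under 0.05. Glutathione reductase, gsr, had 85.4, 79.2 and 67.3 CPM in the FM libraries, 129, 149 and 149 CPM in SBM and 165, 164 and 159 CPM in Drug. The SBM and Drug libraries of gsr spanned 129 to 165 CPM, and none overlapped FM, as the rule for a rise requires (log2 fold change 0.97, SE 0.13, adjusted p = 0.0127). The peroxiredoxin prdx5 rose 1.69-fold. Without FM replicate 1, SBM replicate 3 or Drug replicate 3 the count of 4 was 2, without FM replicate 2 it was 0, without SBM replicate 2 it was 6, and with DESeq2 7 rose and 3 fell. The efflux pump abcc2, which exports conjugated compounds, was the 1 gene of 14 on the xenobiotic list to rise (7.14%, against 2.47% of all genes), 1.59-fold in SBM and 1.53-fold in Drug. Its call was kept in 10 of 20 alternatives.

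Junction genes rose or fell singly. Of 31 junction genes 3 rose (9.68%, against 2.47% of all genes), 1 fell (3.23%, against 1.55%) and 27 did not pass. The claudin cldn15a, which forms a pore for cations between enterocytes, had 63.2, 31.4 and 39.2 CPM in the FM libraries, 190.2, 135 and 221 CPM in SBM and 165, 132 and 151 CPM in Drug (log2 fold change 1.89, SE 0.26, adjusted p = 0.0137). The intestinal cadherin cdh17 had 918, 848 and 797 CPM in the FM libraries, 1577, 1599 and 1899.7 CPM in SBM and 1529, 1313 and 1408 CPM in Drug (log2 fold change 0.86, SE 0.12, adjusted p = 0.0127), and plakoglobin, jupa, rose 1.5-fold. The polarity gene crb3b fell, with 6.46, 8.46 and 7.54 CPM in the FM libraries, 2.75, 2.47 and 2.35 CPM in SBM and 3.78, 2.72 and 3.14 CPM in Drug (log2 fold change -1.39, SE 0.18, adjusted p = 0.0122). As the rule for a fall requires, no SBM or Drug value of crb3b reached the lowest FM value. All 4 junction calls were lost without FM replicate 2. In the list of 12 mucin, goblet cell and glycosylation genes, the secretory chaperone agr2 rose 1.75-fold (8.33% of the list, against 2.47% of all genes), and a pair of sugar transferases fell (16.7%, against 1.55%). The glycolipid enzyme b3gnt5b had 97, 92 and 59.5 CPM in the FM libraries, 35.6, 40.3 and 32.4 CPM in SBM and 33.8, 29.2 and 28.7 CPM in Drug (log2 fold change -1.32, SE 0.17, adjusted p = 0.0122), and c1galt1a, which builds the core of mucin sugars, had 53.4, 64.4 and 35.7 CPM in the FM libraries, 30.1, 27.2 and 24.9 CPM in SBM and 23.5, 30.6 and 20.8 CPM in Drug (log2 fold change -0.97, SE 0.20, adjusted p = 0.0341). The epithelial transcription factor klf4 was the 1 gene of 32 on the immediate early and klf list to rise (3.12%, against 2.47% of all genes), 6.96-fold in SBM and 2.64-fold in Drug. Of 20 alternatives, agr2 kept its call in 9 and klf4 in 12. Both calls were lost without any 1 FM library, SBM replicate 3 or any 1 Drug library. The homeobox factor cdx1a, a regulator of intestinal identity, was the 1 gene of 29 on the gut transcription factor list to fall (3.45%, against 1.55% of all genes), 1.58-fold in SBM and 2.25-fold in Drug.

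The 1 gene with a name whose rise was kept in all 20 alternatives was greb1, known in human breast cells as a target of the estrogen receptor. It had 1.37, 1.87 and 1.5 CPM in the FM libraries, 11.6, 19.3 and 23 CPM in SBM and 39.3, 38.1 and 44.4 CPM in Drug (log2 fold change 4.09, SE 0.26, adjusted p = 0.000705). The FM libraries lay within 1.37 to 1.87 CPM, and the lowest of the other 6 was SBM replicate 1. The other 37 genes of the growth, insulin and TOR list did not pass, so 2.63% of it rose, against 2.47% of all genes. Off that list, and chosen after their values were seen, the insulin signalling genes pik3r1 and tbc1d4 fell. Their calls were kept in 19 and 10 of 20 alternatives. For greb1 the interval of the log2 difference between Drug and SBM was 0.63 to 1.72, with all 3 Drug libraries above all 3 SBM libraries. It is not adjusted for the number of genes, and greb1 did not differ between Drug and SBM at an adjusted p under 0.05. The rise of LOC125905235 was also kept in all 20. The files pair it with no name, and it had 0.821, 0.185 and 0.737 CPM in the FM libraries, 24.5, 7.21 and 27.8 CPM in SBM and 202, 145 and 159.7 CPM in Drug. It rose 34.1-fold in SBM and 290.5-fold in Drug, so the groups shared a direction at unlike levels (interval 1.78 to 4.40 on the log2 scale, adjusted p = 0.121 for Drug against SBM). Other large rises were those of vwa11, 25.3-fold in SBM and 20.4-fold in Drug, of odf3b, 20.1-fold in SBM and 14.4-fold in Drug, of the follistatin-like gene fstl5, 9.15-fold in SBM and 13.9-fold in Drug, and of the mitotic kinase pbk, 7.88-fold in SBM and 16-fold in Drug. The genes ntd5, si:ch211-266i6.3 and si:ch1073-13h15.3 rose 10.7-fold, 18.8-fold and 9.06-fold. These calls were less stable than that of greb1. Of 20 alternatives, vwa11 kept its call in 18, odf3b in 14, fstl5 in 13 and pbk in 7. The call was kept in 10 for ntd5, in 10 for si:ch211-266i6.3 and in 15 for si:ch1073-13h15.3.

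Oxygen sensing was the list with the most genes that fell. Of 24 genes 5 fell (20.8%, against 1.55% of all genes), 19 did not pass, and none rose with edgeR or DESeq2, with 1 positive value at an unadjusted p under 0.05. The list median was -0.33, with -0.16 in SBM and -0.65 in Drug, beside -0.02 for all genes. The 3 prolyl hydroxylases that tag hypoxia-inducible factors in normal oxygen all fell. For egln1a the values were 144, 117 and 115 CPM in the FM libraries, 68, 85.5 and 77.1 CPM in SBM and 42, 52 and 51.6 CPM in Drug (log2 fold change -1.04, SE 0.14, adjusted p = 0.0127). For egln2 they were 98.9, 85.1 and 109.7 CPM in the FM libraries, 76.9, 58.7 and 65.5 CPM in SBM and 28, 38.2 and 38.8 CPM in Drug, and for egln3, which hypoxia itself induces in mammals, 413, 302 and 387 CPM in the FM libraries, 180.4, 253 and 247 CPM in SBM and 17.5, 60.9 and 50.5 CPM in Drug. In each of the 3 genes all Drug libraries lay below all SBM libraries, while the place of both below FM is what the rule for a fall requires. Drug lay farther from FM than SBM in 164 of the 274 genes that fell. How many of these had every Drug library below every SBM library was not counted. The falls were 1.63-fold in SBM and 2.59-fold in Drug, 1.46-fold in SBM and 2.8-fold in Drug, and 1.62-fold in SBM and 8.55-fold in Drug, and the intervals of the log2 difference between Drug and SBM were -1.04 to -0.29, -1.36 to -0.52 and -3.32 to -1.48, although none of the differences between Drug and SBM had an adjusted p under 0.05 (0.186, 0.133 and 0.105). The other members that fell were pfkfb4b, a regulator of glycolysis, with 192, 188 and 156 CPM in the FM libraries, 78, 105 and 104 CPM in SBM and 61.3, 34 and 72.7 CPM in Drug (log2 fold change -1.29, SE 0.22, adjusted p = 0.0249), and jmjd6, a jumonji protein, which fell 1.45-fold in SBM and 1.74-fold in Drug. The factor hif1aa itself had 179.7, 167 and 128 CPM in the FM libraries, 190.3, 154 and 158 CPM in SBM and 106, 121 and 101 CPM in Drug and did not pass (log2 fold change -0.22, adjusted p = 0.402). The count of 5 was 0 without FM replicate 1 or 2, 1 without SBM replicate 3, 3 without Drug replicate 1 or 3, 8 without SBM replicate 1 and 1 when SBM and Drug were fitted as a single group.

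**Figure D3:**
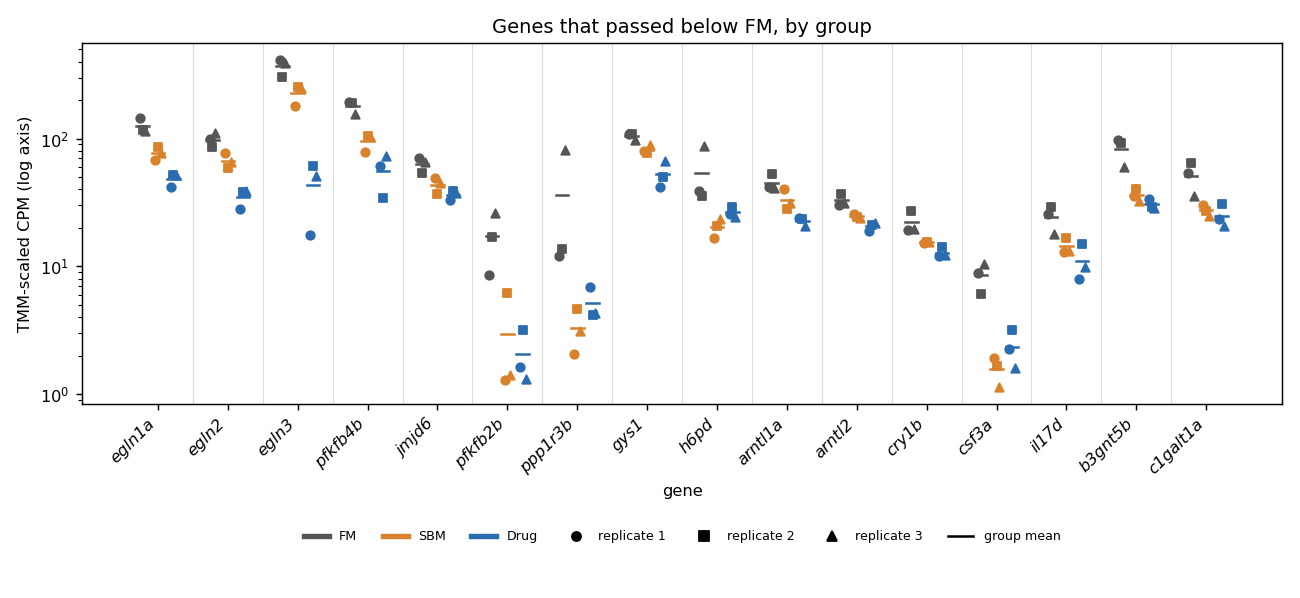
TMM-scaled CPM on a log axis of 16 genes that passed below FM, by library, with FM in grey, SBM in orange and Drug in blue and the bar at the group mean. In egln1a, egln2 and egln3 the SBM points lie between FM and Drug, while in csf3a and b3gnt5b SBM and Drug lie together, and in ppp1r3b and h6pd FM replicate 3 (grey triangle) lies above the rest of its group.

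The largest fall was that of stbd1, and it carried a high value in FM replicate 3, the library with hepatocyte transcripts. The glycogen-binding protein stbd1 had 9.28, 8.46 and 351 CPM in the FM libraries, 2.05, 1 and 1.43 CPM in SBM and 0.853, 0.715 and 0.44 CPM in Drug. Without FM replicate 3 its log2 fold change went from -6.94 to -3.14 and passed with an adjusted p of 0.00888, but 13 of its 19 alternatives did not pass (adjusted p of 0.00421 to 0.133). The glycogen-targeting phosphatase subunit ppp1r3b had 12.1, 13.8 and 81.6 CPM in the FM libraries, 2.05, 4.65 and 3.13 CPM in SBM and 6.94, 4.15 and 4.35 CPM in Drug, and its log2 fold change of -3.12 became -1.65 without that library, with an adjusted p of 0.0396 (0.0117 to 0.0986 over 20 alternatives, 10 of which did not pass). The fructose bisphosphate regulator pfkfb2b had 8.51, 17 and 26.2 CPM in the FM libraries, 1.29, 6.17 and 1.4 CPM in SBM and 1.62, 3.2 and 1.32 CPM in Drug (log2 fold change -2.80, SE 0.55, adjusted p = 0.0343), and without FM replicate 3 its value was -2.37 with an adjusted p of 0.0739 (2.09e-05 to 0.0971 over 20 alternatives, 7 of which did not pass). Chosen after their values were seen, glycogen synthase gys1 had 109, 109 and 97.1 CPM in the FM libraries, 79.4, 77.1 and 88.2 CPM in SBM and 41.8, 50.4 and 67 CPM in Drug, and h6pd, an endoplasmic reticulum sugar phosphate dehydrogenase, had 38.9, 35.2 and 87.5 CPM in the FM libraries, 16.8, 20.6 and 23.4 CPM in SBM and 25.7, 29.3 and 24.2 CPM in Drug. They fell 1.59-fold and 2.33-fold. The part of hepatocyte RNA in these values was not tested. The potassium channel kcnj19a also fell, with 6.79, 11 and 5.92 CPM in the FM libraries, 0.139, 2.84 and 1.07 CPM in SBM and 0.512, 1.26 and 1.41 CPM in Drug. In gys1 and kcnj19a FM replicate 3 was the lowest FM library. The call of gys1 was kept in 9 of 20 alternatives. That of kcnj19a was kept in 10 and was lost without FM replicate 3, at an adjusted p of 0.0723 in edgeR's test.

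Few immune genes fell by the test, while most cytokine and pattern recognition genes on the lists had negative values. The granulocyte growth factor csf3a had 8.95, 6.12 and 10.4 CPM in the FM libraries, 1.91, 1.67 and 1.13 CPM in SBM and 2.25, 3.2 and 1.61 CPM in Drug (log2 fold change -2.14, SE 0.27, adjusted p = 0.0122). The highest of the 6 was Drug replicate 2. The cytokine il17d had 25.8, 29.3 and 17.8 CPM in the FM libraries, 13, 16.7 and 13.3 CPM in SBM and 7.9, 15 and 9.86 CPM in Drug, and with csf3a it made 2 falls among 28 cytokine and receptor genes, none of which rose with edgeR or DESeq2 and 1 of which was positive at an unadjusted p under 0.05. The 2 falls were 7.14% of the list, against 1.55% of all genes. Of the 28, 22 had a negative value (median log2 fold change -0.36). All 6 libraries lay below FM in 4 and above it in 0, against 6.05% and 6.31% of all genes. The receptor gene il11ra, on no list and chosen after its values were seen, also fell, a call kept in 12 of 20 alternatives. The fall of il17d was lost in 12 of 20 alternatives. Among these were FM replicate 1 or 2, SBM replicate 1 or 3 or Drug replicate 1 or 3 left out. The others were the model of 2 groups, upper-quartile factors, no filter, the stricter filter and limma on FPKM with either pseudocount. The fall of csf3a was lost only without FM replicate 2. The NF-kappaB cofactor nfkbiz had 23, 26.9 and 19.5 CPM in the FM libraries, 11.4, 10.7 and 10.5 CPM in SBM and 10.5, 13.3 and 12.2 CPM in Drug (log2 fold change -1.02, SE 0.14, adjusted p = 0.013). On the same list of 37 genes the inflammasome adaptor pycard rose 1.72-fold, a call kept in 10 of 20 alternatives. The rise and the fall were each 2.7% of that list, against 2.47% and 1.55% of all genes. Of the 37, 25 had a negative value, and all 6 libraries lay below FM in 5 and above it in 1. The NADPH oxidase subunit ncf1 fell 1.33-fold in SBM and 2.14-fold in Drug, the 1 call among 4 tested neutrophil markers (25%, against 1.55% of all genes). The B cell kinase btk, chosen after its values were seen, fell 2.02-fold in SBM and 1.79-fold in Drug. Of 20 alternatives, ncf1 kept its call in 8 and btk in 14. Beside them the B cell markers cd79a, cd79b and pax5 summed to 18.9 to 45.3 CPM in FM, 5.93 to 15.8 CPM in SBM and 7.19 to 18.5 CPM in Drug. The 4 T cell markers summed to 37.9 to 42.8 CPM in FM, 12.0 to 33.2 CPM in SBM and 24.0 to 40.4 CPM in Drug. The 5 neutrophil markers, of which 1 was at 0 in FM and in SBM, summed to 96.0 to 633 CPM, 44.0 to 117 CPM and 44.7 to 428 CPM. The part of cell numbers in the falls was not tested.

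Among 32 clock genes 3 fell (9.38%, against 1.55% of all genes) and none rose with edgeR, with 5 positive and 9 negative at an unadjusted p under 0.05 and 1 rise and 4 falls with DESeq2. The positive-limb factor arntl1a, which drives clock transcription, had 41.6, 52.4 and 40.7 CPM in the FM libraries, 40.3, 28 and 31.5 CPM in SBM and 23.9, 23.4 and 20.7 CPM in Drug. Its relative arntl2 had 30.0, 37.1 and 31.3 CPM in the FM libraries, 25.9, 24.4 and 23.8 CPM in SBM and 18.9, 21.1 and 21.7 CPM in Drug. Drug lay below SBM in both genes. The repressor cry1b fell as well, 1.43-fold in SBM and 1.72-fold in Drug. All 3 calls were lost without any 1 FM library, SBM replicate 3 or any 1 Drug library. Fitting SBM and Drug as a single group left none. The labels give no hour of sampling.

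Other falls came from scattered functions. The Hippo pathway gene wwc1, the 1 gene of 38 on its list to fall (2.63%, against 1.55% of all genes), had 31.5, 31.3 and 24.2 CPM in the FM libraries, 12.5, 12.2 and 14.7 CPM in SBM and 13.8, 12.5 and 17.8 CPM in Drug (log2 fold change -1.06, SE 0.15, adjusted p = 0.0156). Of 29 apoptosis and p53 genes 1 rose (3.45%, against 2.47% of all genes) and 2 fell (6.9%, against 1.55%). The survival gene bcl2b fell 1.88-fold in SBM and 1.92-fold in Drug, and mdm4, a p53 inhibitor, fell 1.78-fold in SBM and 1.34-fold in Drug, while the pro-apoptotic bida rose 1.68-fold. The taste and tuft cell channel trpm5 had 14.6, 6.43 and 5.45 CPM in the FM libraries, 2.81, 1.26 and 2.8 CPM in SBM and 2.56, 4.03 and 1.38 CPM in Drug (log2 fold change -1.84, SE 0.42, adjusted p = 0.0456). The receptor-clustering protein rapsn had 18, 23.5 and 11 CPM in the FM libraries, 4.52, 2.81 and 4.05 CPM in SBM and 8.81, 2.12 and 5.37 CPM in Drug (log2 fold change -1.95, SE 0.39, adjusted p = 0.0334). The sulfotransferase hs3st3b1b, the whirlin gene whrna and the adhesion receptor adgrf3b fell 3.74-fold, 3.32-fold and 3.14-fold. The call was kept in 18 of 20 alternatives for wwc1, 16 for rapsn, 14 for adgrf3b and 13 for bida. It was kept in 12 for hs3st3b1b, 12 for whrna, 11 for mdm4, 10 for bcl2b and 9 for trpm5. The calls of trpm5, mdm4, bida, hs3st3b1b and whrna were lost without FM replicate 3. Chosen after their values were seen, the RNA-binding proteins srek1, rbm25a and rbm5 and the splicing factor srsf5b fell 1.84-fold, 1.79-fold, 1.6-fold and 1.5-fold. The morphogen shha, also chosen so, fell, with 5.2, 5.3 and 4.04 CPM in the FM libraries, 1.77, 2.33 and 2.2 CPM in SBM and 3.52, 3 and 2.7 CPM in Drug. Of genes without a name, LOC125893712 and LOC125902655 were the falls kept in all 20 alternatives. The former had 1015, 1437 and 1144 CPM in the FM libraries, 387, 479 and 426 CPM in SBM and 126, 149 and 204 CPM in Drug. The latter had 67.7, 84.9 and 59.5 CPM in the FM libraries, 14.3, 11.9 and 14.4 CPM in SBM and 22.7, 22 and 21.5 CPM in Drug.

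**Figure D4:**
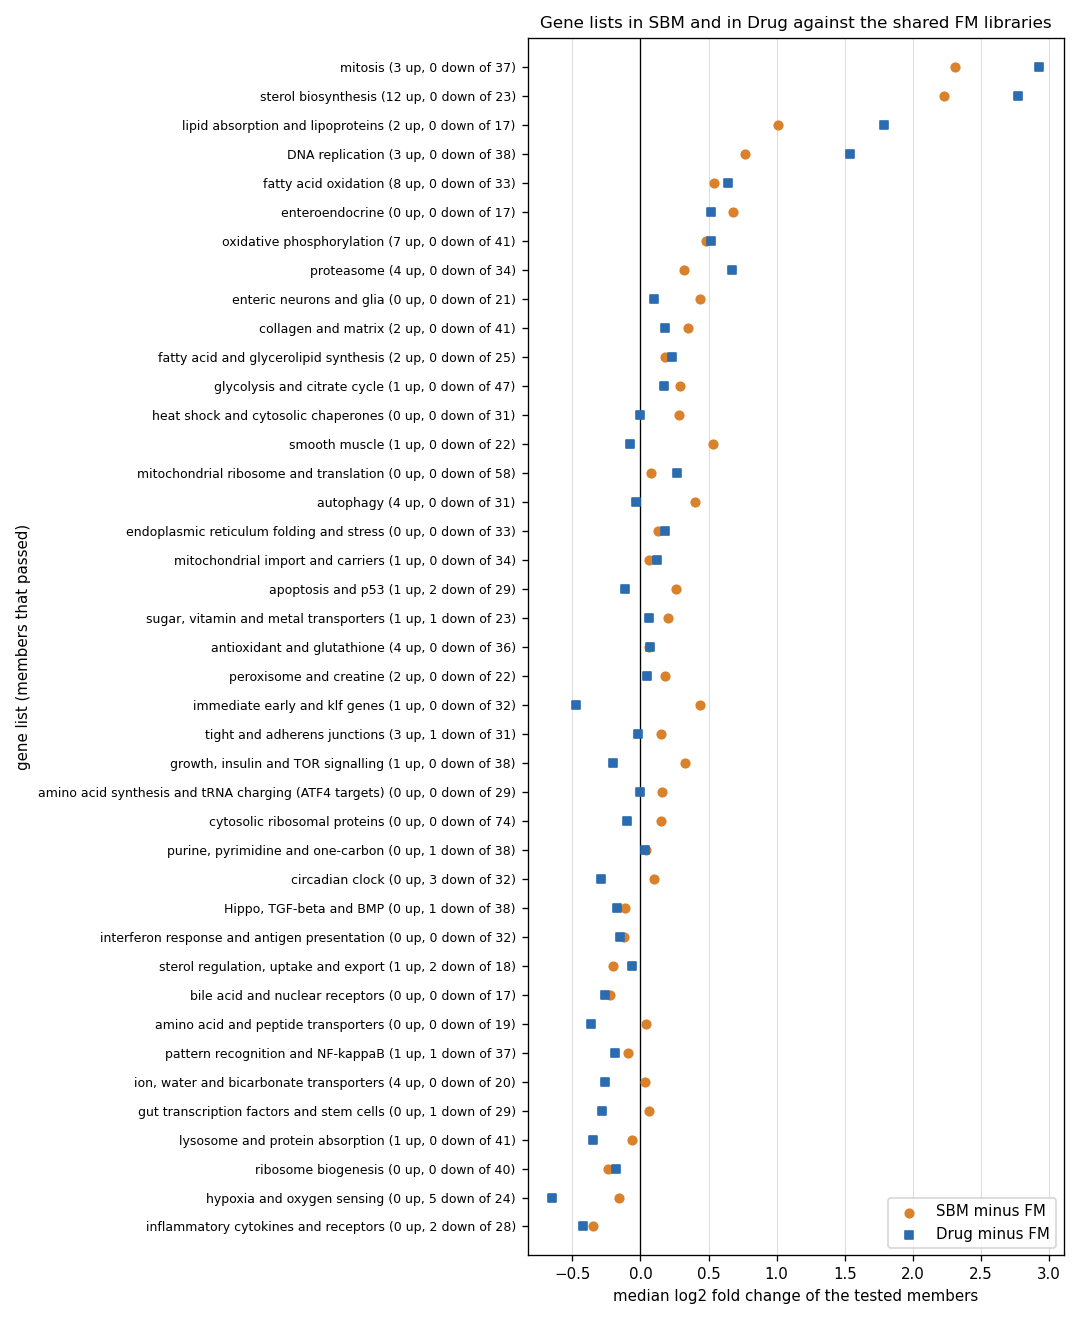
Median log2 fold change of the tested members of each list with at least 15 tested genes, in SBM (orange circles) and in Drug (blue squares) against the same 3 FM libraries, with the number of members that passed in each direction in the label. Sterol biosynthesis has the most members that passed (12 of 23), while mitosis has the highest medians with 3 of 37.

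The lists of structural and metabolic genes gave few calls. Among 41 collagen and matrix genes 2 rose (4.88%, against 2.47% of all genes), and 11 had all 6 libraries above FM (26.8%, against 6.31%). The 2 that rose were col6a3 and the basement membrane collagen col4a2. For col6a3 the values were 189, 171 and 179 CPM in the FM libraries, 309, 248 and 256 CPM in SBM and 302, 286 and 283 CPM in Drug. For col4a2 they were 42.7, 47.3 and 42.2 CPM in the FM libraries, 69.6, 58.6 and 58.6 CPM in SBM and 65.1, 78.3 and 72.4 CPM in Drug. Both lay within a narrow band in FM. Off the list, and chosen after their values were seen, col8a2 and nid1a rose too, with calls kept in 12 and 11 of 20 alternatives. The count of 2 was 0 without any 1 FM library, SBM replicate 3 or any 1 Drug library, 4 without SBM replicate 1 and 8 with DESeq2. Of 22 smooth muscle genes the calcium store protein casq2 rose (4.55%, against 2.47% of all genes), 2.73-fold in SBM and 2.8-fold in Drug. Single rises came from the trehalase treh among 12 brush border digestion genes, 1.72-fold in SBM and 1.67-fold in Drug, from suclg1, a citrate cycle enzyme, among 47 genes of glycolysis and that cycle, 1.66-fold in SBM and 1.54-fold in Drug, and from the mitochondrial phosphate carrier slc25a3a among 34 import and carrier genes, 1.45-fold in SBM and 1.33-fold in Drug. The single rises of treh, suclg1 and slc25a3a were 8.33%, 2.13% and 2.94% of their lists, against 2.47% of all genes. Among 38 genes of purine, pyrimidine and one-carbon metabolism the guanine nucleotide enzyme impdh1b fell (2.63%, against 1.55% of all genes), 1.67-fold in SBM and 1.4-fold in Drug. Of 20 alternatives, treh did not pass in 10, suclg1 in 14, slc25a3a in 13, impdh1b in 11 and casq2 in 2, the last being without FM replicate 2 or SBM replicate 3. Without SBM replicate 2 the brush border list had 5 rises and 3 falls.

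In the remaining lists no gene passed with edgeR. None of 74 cytosolic ribosomal protein genes passed with edgeR or DESeq2 or at an unadjusted p under 0.05, and their median log2 fold change was 0.02. None of 40 ribosome biogenesis genes passed with edgeR or DESeq2, with 0 positive and 2 negative at an unadjusted p under 0.05, although 36 of the 40 values were negative (median -0.23). None of 29 genes of amino acid synthesis and tRNA charging passed with either tool, with 1 at an unadjusted p under 0.05. Among 33 genes of folding and stress in the endoplasmic reticulum the count was 0 with both tools, with 5 positive and 2 negative at an unadjusted p under 0.05. Of 31 heat shock and chaperone genes 0 passed with edgeR and 1 rose with DESeq2, with 4 positive and 1 negative at an unadjusted p under 0.05. Of 19 amino acid and peptide transporters 0 passed with either tool, with 4 positive and 4 negative at an unadjusted p under 0.05. Of 32 interferon and antigen presentation genes 0 passed with edgeR and 2 fell with DESeq2, with 6 negative at an unadjusted p under 0.05. Enteroendocrine genes gave 0 of 17 with edgeR, 1 rise with DESeq2 and 3 positive at an unadjusted p under 0.05. In that list tph1a, the enzyme of serotonin synthesis, had all 6 libraries above FM at 0.109, 0.132 and 0.118 CPM in the FM libraries, 0.903, 0.144 and 0.983 CPM in SBM and 0.938, 0.743 and 0.675 CPM in Drug, with an adjusted p of 0.0533. Nerve and glia genes gave 0 of 21 with edgeR and 1 rise with DESeq2, with 3 positive and 1 negative at an unadjusted p under 0.05, and bile acid and nuclear receptor genes gave 0 of 17 with edgeR and 1 rise with DESeq2, with 2 positive and 4 negative. None of 12 complement and acute phase genes passed with either tool, with 6 negative at an unadjusted p under 0.05, and none of 14 tested hepatocyte markers passed with either, with 12 negative. Their high level was in FM replicate 3, and without it and SBM replicate 2 together 6 of the markers were called higher. No tested marker of the exocrine pancreas, red blood cells or macrophages passed with edgeR, with DESeq2 or at an unadjusted p under 0.05, and the 3 B cell markers gave 0 with edgeR, 2 falls with DESeq2 and 3 negative at an unadjusted p under 0.05. Of the 4 T cell markers 0 passed with either tool, with 1 negative at an unadjusted p under 0.05. A p that misses the threshold does not show that these genes did not differ.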

How the data were processed

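Intestinal RNA of 9 libraries, 3 each of FM, SBM and Drug, was analysed from a table of raw counts per gene that the authors deposited. Per the submitters' processing notes, fastp, HISAT2, HTSeq, R 3.2.0 and DESeq2 were used, with no role or order given. The notes name the mouse build mm10, whereas the symbols are fish symbols, so the genome and annotation are not given in the sources used here, nor is strand, and reads of close paralogs (names ending in a and b) may have been split uncertainly. The deposited FPKM values are the authors' counts scaled by gene length and total count, checked on 15780 genes within a relative tolerance of 1e-06. The 9 deposited single-library count files equalled their columns.

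The test on the counts used R 4.3.3 and edgeR 4.0.16 (filterByExpr, TMM, robust quasi-likelihood F test, two-sided) in a model of 3 groups with 6 residual degrees of freedom, as the mean of SBM and Drug against FM, with Benjamini-Hochberg adjustment over 17731 genes. The SE is the size of the log2 fold change divided by the square root of F. The Drug against SBM contrast of the same model gave the 95% intervals. The procedure was tested on simulated data. Alternatives were DESeq2 1.42.0, limma 3.58.1 on log2(FPKM + 1) and log2(FPKM + 0.1), other scalings and filters, a model of 2 groups, a replicate block and each library left out. No 2 libraries of a group agreed within sampling noise.

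The members and the 55 gene lists were chosen with earlier results of these data known, so the lists are described by counts and medians with no test of the set. Genes named came from the 15 largest changes per direction with a symbol and a mean of at least 5 CPM in a group. They also came from up to 4 members of each list by smallest p and up to 3 members of a list with none called. Other sources were a few genes with a bare LOC number and the genes at the edge of the rule. Not every gene picked so is described, and the falls palm3, stx1a, pxylp1 and si:ch211-117c9.2 are among those left out. Further members of a list, such as crot, hmgcra, fdps, npc1l1, srebf1 and hif1aa, were named to complete a pathway after their values were seen, and genes on no list are marked so in the text. The values of 1 further list member are not reported here.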

Additional observations from a re-analysis of the deposited data

Results flagged for a closer look

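Among the 712 genes shifted alike in SBM and Drug, 1 differed between them by edgeR's test of Drug against SBM in the same model. LOC125900504, which the files pair with no name, had 31.8, 33.8 and 24.5 CPM in FM, 18.2, 22.8 and 18.9 CPM in SBM and 6.28, 5.46 and 7.87 CPM in Drug. The log2 difference of Drug from SBM was -1.61 (SE 0.20, 95% interval -2.06 to -1.16, adjusted p = 0.0426 by edgeR's quasi-likelihood test), beside log2 fold changes against FM of -0.59 in SBM and -2.20 in Drug. All 3 Drug libraries lay below all 3 SBM libraries. Groups of 3 are too small for a test of single outlying libraries.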

How the results depend on the processing

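The 438 rises and 274 falls were 926 and 671 with DESeq2, and 226 and 322 or 246 and 297 with limma on FPKM with a pseudocount of 1 or 0.1. Fitting SBM and Drug as a single group gave 333 and 181. Leaving out 1 library at a time gave 2 to 869 rises and 2 to 437 falls, with the values per library in the report. The cause of these shifts was not tested. A replicate block gave 549 and 369, of which 412 and 255 were shared with the counts reported, and moved the rises in the proteasome list from 4 to 10 and in the mitosis list from 3 to 1. It moved those in the fatty acid oxidation list from 8 to 12. The calls of kif23, racgap1, pbk, stbd1, ppp1r3b and suclg1 were among those lost with the block. Same-numbered libraries correlated in their deviations from the group mean at 0.0524 to 0.37, with 7 of 9 pairs over 0.1, while other pairs reached 0.00467 at most. No label states a shared fish or batch, so the numbers were not taken to pair the libraries, and the reported counts leave the block out. In 18 of 18 cases a library matched its own number best in another group, which is a hint from the data and not from the design. The log2 fold change of c5 was -9.10, became 4.25 without FM replicate 3 and 4.35 without FM replicate 3 and SBM replicate 2 together, and that of hpxb, which ran from -9.17 to 5.32 over the libraries left out in turn, was 5.32 without FM replicate 3 and 5.41 without both. Neither gene had passed with all libraries. Without both libraries c5 and hpxb were called as rises. For hpxb this also held without FM replicate 3 alone, at an adjusted p of 0.0195 in edgeR's test. Leaving out both libraries, and the genes restricted to FM replicate 3, were alternatives chosen from earlier results of these data, and the counts of list members under other settings were added after seeing the data. With 3 libraries a group, moderate changes that all 6 libraries share can miss the threshold, and counts near it move with the spread of 1 library.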
